A study of Mus musculus with 6 samples.

Results

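Tau, the other structural microtubule-associated proteins (MAPs), the stathmins and doublecortin were followed as 10 genes: Mapt, Map1a, Map1b, Map2, Map4, Stmn1, Stmn2, Stmn3, Stmn4 and Dcx. The transcripts counted were those that overlap an exon of one of these genes on its strand in the mouse gene annotation GENCODE vM21 (build mm10). All 10 genes were found among the 15707 annotated genes with an assembled base. In 6 libraries they held 157 assembled transcripts, of which 125 had several exons and 79 had the intron chain of an annotated transcript. The 125 carried 52 distinct intron chains, 20 of them annotated. A further 5 transcripts over Mapt had no strand.

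The libraries held poly-A RNA of C57BL/6 mice aged 5 weeks, from the ventral part of their lumbar cord. Of these, 3 were from wild-type mice (WT) and 3 from Gde2KO mice, and the labels name no other treatment. Their lost gene, Gdpd5, makes GDE2, an ectoenzyme that cuts glycosylphosphatidylinositol anchors and so frees proteins from the cell surface. The labels do not give the allele, the cells that lose the gene, the sex, or whether each library is 1 mouse, so the spread between libraries may be in part technical. Levels are in FPKM, fragments per kilobase of transcript scaled to library size, and were rescaled between libraries.

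Microtubules are polymers of tubulin that form tracks along axons and dendrites. MAPs bind along their length and stabilise them, while stathmins bind free tubulin and favour disassembly. Tau is mostly axonal and MAP2 mostly dendritic, whereas MAP4 is made in most cell types. Tau, MAP2 and MAP4 share a family of tandem microtubule-binding repeats near the C-terminus, and alternative exons set how many repeats each protein has.

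In Map2 and Map4 a coding exon of 93 bases holds a repeat that can be left out, and these exons are shown because the groups lay apart in the use of the Map2 exon and overlapped in that of Map4. They stand in capitals, with 15 bases of the neighbouring exons of the same transcript on each side in lower case, from the transcripts Map2-206 and Map4-201 of GENCODE vM21. Both genes lie on the plus strand, and the exons are chr1:66431527-66431619 and chr9:110072613-110072705.
Map2 repeat exon: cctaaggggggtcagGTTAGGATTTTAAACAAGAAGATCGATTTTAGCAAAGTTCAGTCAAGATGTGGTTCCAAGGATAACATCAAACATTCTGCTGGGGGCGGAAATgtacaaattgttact
Map4 repeat exon: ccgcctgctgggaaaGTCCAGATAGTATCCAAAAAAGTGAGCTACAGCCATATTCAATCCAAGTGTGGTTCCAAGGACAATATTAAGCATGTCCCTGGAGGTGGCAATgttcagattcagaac

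Aligned base by base without gaps, the Map2 and Map4 exons were identical at 59 of 93 positions (63.4%). The GC content was 43.0% in Map4 and 38.7% in Map2.

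Inclusion of an exon is the FPKM of assembled transcripts with the exon as a percentage of those plus the transcripts that span and skip it. The Map4 repeat exon was at 71.6%, 47.9% and 75.6% in WT replicates 1 to 3 and at 42.1%, 75.7% and 56.6% in the Gde2KO replicates, and the groups overlapped. It did not pass the test between genotypes (limma on log-odds, adjusted p = 0.930).

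The Map2 repeat exon stood apart between genotypes. It was at 22.4%, 64.7% and 30.9% in the 3 WT libraries and was listed at 0 in all 3 Gde2KO libraries. Each WT library held 1 chain with the exon, at a deposited FPKM of 22.91 (the authors' confidence bounds 21.68 to 24.14), 67.83 (64.82 to 70.83) and 42.48 (39.86 to 45.11). The 10 chains of the Gde2KO libraries all skipped it. The log2 odds differed by -5.98 (95% interval -8.82 to -3.15), which did not pass the test over 1899 exons (limma, unadjusted p = 0.00245, adjusted p = 0.860). With every Gde2KO value at 0 its size follows the offset added to the shares, and it was -3.78 with an offset of 5 percent. The exon met the filter on inclusion only through the WT libraries. Of these 1899 exons 0 passed (0%), 57 (3%) had an unadjusted limma p under 0.05, and 179 (9.43%) had groups that did not overlap. Of the 8 tested exons of these genes, this was the 1 with groups apart. Chains below an isoform fraction of 0.1 are not in the files, so an exon listed at 0 can still be used at a low level.

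**Figure D1:**
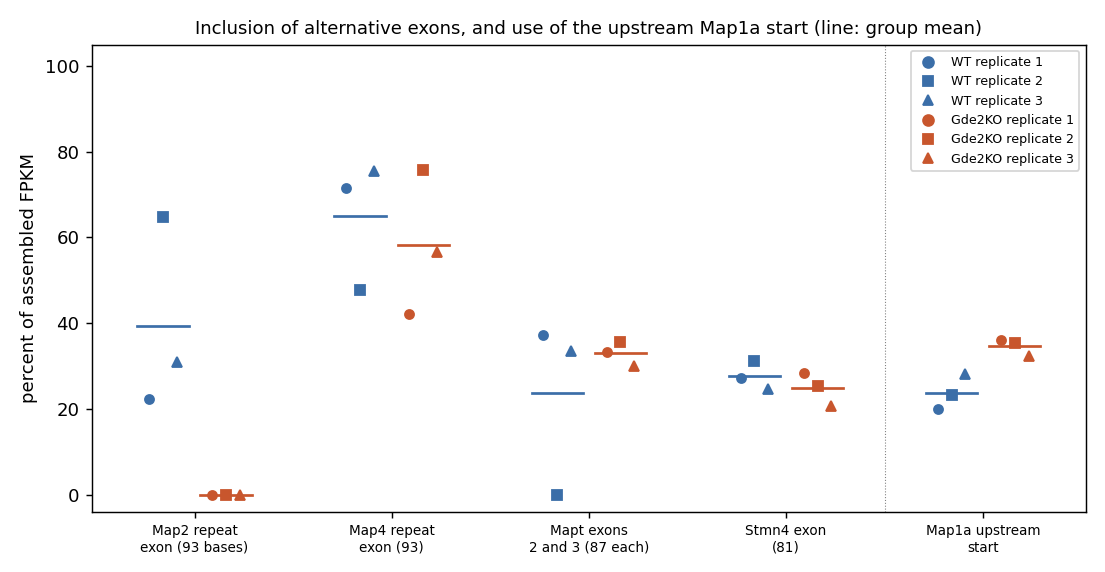
Percent inclusion of alternative exons (left of the dotted line) and percent of Map1a FPKM from the upstream start (right), by library. Points are libraries and lines are means of 3. The Map2 repeat exon is at 22.4% or more in the WT cords and at 0 in Gde2KO, and the Map1a share is 20.1% to 28.1% in WT and 32.4% to 36.0% in Gde2KO.

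The levels of the 10 genes spanned a wide range, and per length the stathmins and the MAP1 genes were the highest. The mean over all 6 libraries was 416.7 scaled FPKM for Stmn3, 270.2 for Stmn1, 232.7 for Map1b, 230.2 for Stmn2, 228.6 for Map1a and 177.6 for Stmn4. It was 85.2 for Map2, 74.2 for Map4, 56.3 for Mapt and 0.585 for Dcx. The 6 libraries of Stmn3 lay above all those of Stmn1. From Stmn1 to Map1a the ranges of neighbours overlapped, as they did from Map2 to Mapt. Stmn4 lay apart from Map1a above and Map2 below, and Dcx lay apart from Mapt.

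**Figure D2:**
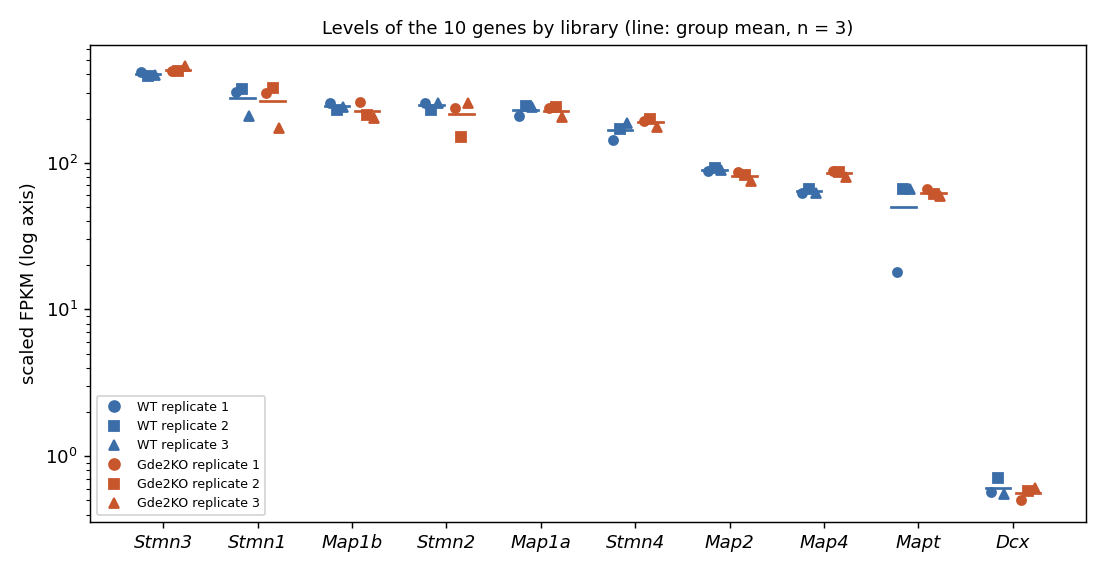
Scaled FPKM of the 10 genes by library on a log axis, ordered by the mean of all libraries. Points are libraries and lines are group means of 3. WT replicate 1 of Mapt lies at 18.0 and the other 5 between 59.4 and 66.4, while Map4 is the gene whose 3 Gde2KO points (79.5 to 88.2) lie farthest above its WT points (62.5 to 65.9). Some bases counted for Map4 were assembled only in Gde2KO.

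Of the 10 genes, 9 reached the mean of 1 FPKM needed for the test between genotypes. Here 0 of the 9 passed (limma, adjusted p from 0.457 to 0.969), 4 were higher and 5 lower in Gde2KO, and the median log2 difference was -0.02. Over all 12894 genes tested 15 passed (0.116%), 5 of them higher (0.0388%) and 10 lower (0.0776%), and the median difference was 0.00. That balance rested on single libraries: it was 7 higher and 3 lower without WT replicate 1, 22 and 4 without WT replicate 2, and 13 and 3 without WT replicate 3. An unadjusted limma p under 0.05 was found for 1 of the 9, Map4, against 504 of all genes (3.91%). The groups did not overlap for 3 of the 9, namely Map4, Stmn3 and Map2, against 1399 of all genes (10.9%). None of these separations held under every definition of the level. As fragments per gene (FPKM times kilobases, summed) the groups of Map2 and Stmn3 overlapped. On the bases assembled in all 6 libraries Map4 was lower in Gde2KO. Gdpd5 itself checked the labels: it was at 5.41, 6.58 and 5.99 scaled FPKM in the WT cords and at 1.25, 1.20 and 0.952 in Gde2KO, and it fell (fold 0.202, limma adjusted p = 0.00530).

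Tau (Mapt, chr11:104231390-104332090) was at 18.0, 66.4 and 65.96 scaled FPKM in the WT cords and at 66.2, 61.5 and 59.4 in Gde2KO. All libraries but WT replicate 1 lay close together. In that library the assembly held 41 bases of the last exon, against 4077 to 4126 in the others, and 31.7% of the bases counted for Mapt were assembled at all. The log2 difference was 0.54 ± 0.54 (SE; limma adjusted p = 0.882), and without WT replicate 1 it was -0.09. Over the 1502 bases assembled in all 6 libraries, Mapt was at 68.0, 59.3 and 58.0 in the WT cords and at 58.3, 54.3 and 52.8 in Gde2KO. On those bases WT replicate 1 was the highest of the 6, and the groups overlapped.

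Tau's alternative exons 2 and 3 encode inserts in the N-terminal projection domain. Both are coding exons of 87 bases, at chr11:104287123-104287209 and chr11:104289908-104289994, and were identical at 30 of 87 positions. They are shown in capitals with 15 bases of neighbouring exons, from Mapt-201, because chains held them both or neither.
Mapt exon 2: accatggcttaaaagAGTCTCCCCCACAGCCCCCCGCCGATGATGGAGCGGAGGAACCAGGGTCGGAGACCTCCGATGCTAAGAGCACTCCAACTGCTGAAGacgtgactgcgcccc
Mapt exon 3: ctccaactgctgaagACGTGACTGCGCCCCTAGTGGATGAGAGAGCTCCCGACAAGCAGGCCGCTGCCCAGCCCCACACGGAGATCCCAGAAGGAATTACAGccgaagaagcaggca

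Exons 2 and 3 were included together at 37.3%, 0% and 33.5% in the WT cords and at 33.4%, 35.5% and 30.1% in Gde2KO. In 5 libraries the values lay close together, and in WT replicate 2 the chain with both exons was not assembled. The difference did not pass (limma adjusted p = 0.906), and its sign turned without WT replicate 2 (log2 odds -0.15 against 1.78 with all libraries). No library held a chain with exon 2 alone. Exons 6 and 8 of the gene were listed at 0 in all 6 libraries. The alternative exon that sets the number of repeats in tau was not followed here.

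The chain without exons 2 and 3, Mapt-204 with 10 exons, carried most of the assembled tau: 50.3%, 77.1% and 54.4% in WT and 52.3%, 51.0% and 57.2% in Gde2KO (limma adjusted p = 0.871). Mapt-201, with both exons and 12 in all, made up 24.7% to 29.9% in the 5 libraries that held it. Another chain, of 8 exons and without an annotated match, was assembled in all 6 libraries. It made up 19.8%, 22.9% and 18.2% in WT and 21.6%, 20.9% and 18.2% in Gde2KO, and the groups overlapped (limma adjusted p = 0.997).

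That unannotated chain began inside exon 4A, a coding exon known from big tau, a long form of tau found in peripheral and some spinal neurons. Exon 4A is 759 bases long (chr11:104298498-104299256), and the chain held its last 327 to 396 bases. In 5 of 6 libraries a separate transcript without strand covered the first part of the exon, and 79 to 186 bases lay unassembled between them. Gde2KO replicate 3 held no such piece. The files therefore cover both ends of the exon in 5 libraries without a chain that joins it to the exons before it.

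MAP2 (Map2, chr1:66175273-66442583) was at 87.6, 91.4 and 88.9 scaled FPKM in the WT cords and at 86.7, 82.1 and 74.5 in Gde2KO. Each Gde2KO library lay below each WT library, by a small margin for replicate 1. The fold was 0.907 (95% interval 0.795 to 1.03), and the difference did not pass (limma adjusted p = 0.882). Groups lower in Gde2KO without overlap were found for 747 of all genes (5.79%).

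Map2 was assembled as 12 distinct chains, of which 1, Map2-204 with 15 exons, had an annotated match. Map2-204 made up 57.5% and 35.5% in WT replicates 1 and 3 and 48.8% in Gde2KO replicate 1, and was not assembled in the other 3 libraries. A chain of 16 exons from an upstream start, at position 66174933 to 66175124 of chromosome 1, was assembled at 28.2%, 28.0% and 31.6% in the 3 Gde2KO libraries and in no WT library. It was not tested, since isoforms had to be assembled in all 6 libraries. Across all genes, 4599 chains of several exons were assembled in exactly 3 libraries, and for 216 of them (4.7%) these were the 3 Gde2KO libraries and for 224 (4.87%) the 3 WT libraries. WT replicate 1 had other chains from the same region, at position 66175249, one of them with the repeat exon.

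The large coding exon of Map2, 3741 bases long, separates the long dendritic forms from the short form known as MAP2C. It was included at 100% in 5 libraries and at 69.1% in WT replicate 3, where 1 chain of 13 exons and 1752 bases skipped it together with its neighbours of 207 and 135 bases. That chain was also the one with the repeat exon in that library. In Gde2KO replicate 2 the 100% leaves out a chain of 16 exons and 5881 bases, at a deposited FPKM of 22.90. It neither held the exact large exon nor skipped it. The coding exon of 246 bases upstream was at 20.1%, 35.3% and 0% in the WT cords and at 22.96%, 25.9% and 26.8% in Gde2KO (limma adjusted p = 0.906).

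Chains with the 246-base exon also held an exon of 237 bases just before it (chr1:66407586-66407822) that no annotated transcript of Map2 has. Both introns around it were unannotated. It was assembled in 5 of 6 libraries, in 1 chain each, at the same shares as the 246-base exon, and was absent from the chains of WT replicate 3. The 3′ side of Map2 was short in every library: of an annotated last exon of 3792 bases, 27 to 36 bases were assembled.

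MAP4 (Map4, chr9:109931460-110083955) gave the smallest p of the 9 genes on the bases counted, a place it did not hold under all definitions of the level. It was at 62.5, 65.9 and 62.6 scaled FPKM in the WT cords and at 88.2, 86.7 and 79.5 in Gde2KO. On the bases counted, some of which met the filter only through the Gde2KO libraries, the groups lay apart. The fold was 1.33 (95% interval 1.18 to 1.497), and it rests in part on those bases. The difference did not pass the test over all genes (limma, unadjusted p = 0.00115, adjusted p = 0.457). Groups higher in Gde2KO without overlap were found for 652 of all genes (5.06%).

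The assembled length of Map4 moved with that difference. Its last annotated exon, 2221 bases long (chr9:110081735-110083955), was assembled for 134, 152 and 155 bases in WT. In Gde2KO 2216, 2221 and 2216 of its bases were assembled. No transcript of either strand covered the rest of the exon in the WT libraries. Bases past the WT ends met the rule of assembly in at least 3 libraries only through Gde2KO. They were counted for Map4 and added nothing to its WT level, so the fold on the bases counted includes this difference in assembly. Over all genes with several exons, the assembled 3′ ends of the groups lay apart by at least 1000 bases for 43 of 11488 (0.374%), 32 of them farther in Gde2KO (0.279%) and 11 farther in WT (0.0958%). Of the bases counted for Map4, 71.0%, 77.1% and 70.8% were assembled in WT, compared with 99.95%, 88.1% and 100% in Gde2KO.

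On the 6485 bases of Map4 assembled in all 6 libraries the order turned round. Map4 was then at 90.4, 91.3 and 90.7 scaled FPKM in the WT cords and at 81.8, 88.5 and 74.4 in Gde2KO, again without overlap. The log2 difference was -0.16 on these bases (limma adjusted p = 0.907) against 0.41 ± 0.07 (SE) on the bases counted. Fragments per gene, which also follow the assembled length, were 637.5 ± 17.7 in WT and 853.8 ± 51.6 in Gde2KO (mean ± SD, n = 3, in FPKM times kilobases). Read coverage of the last exon was not analysed here.

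**Figure D3:**
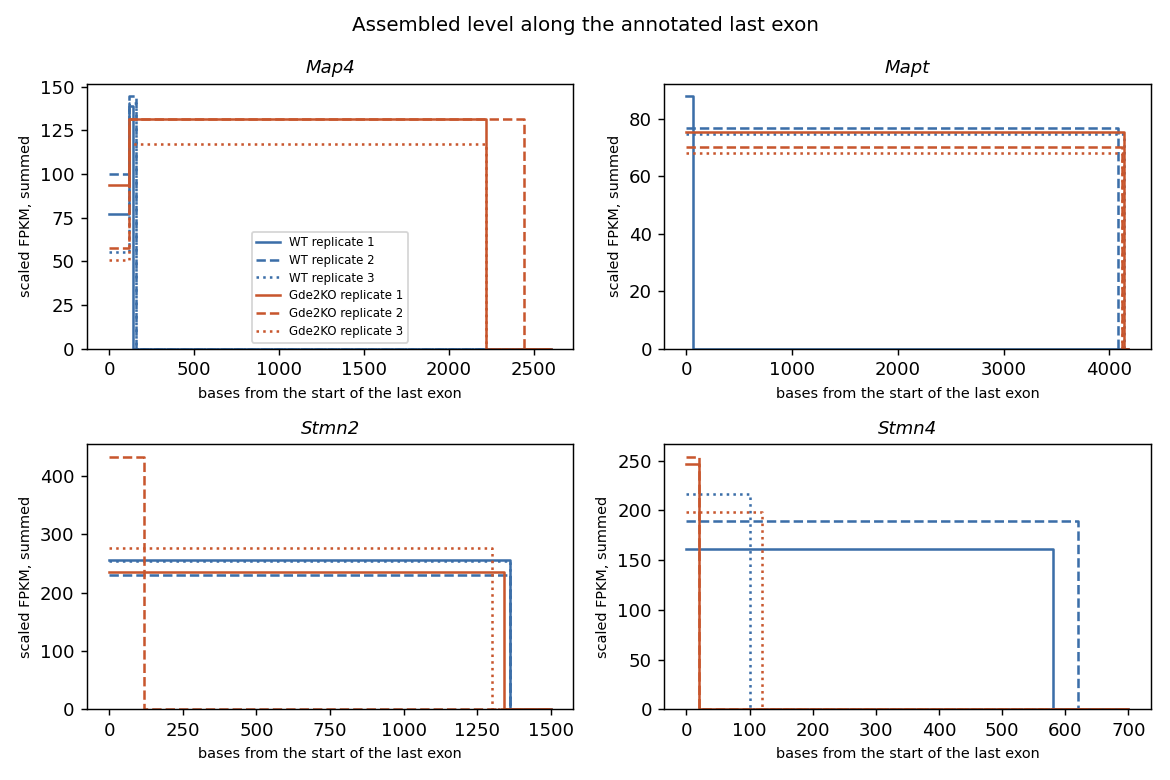
Scaled FPKM summed over assembled transcripts along the annotated last exon of 4 genes, with the distance from the exon's start in bases. Each line is 1 library. In Map4 the 3 WT lines end within 155 bases and the Gde2KO lines reach at least 2216, while in Mapt WT replicate 1 alone and in Stmn2 Gde2KO replicate 2 alone end early, and in Stmn4 the 2 longest lines are WT.

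Map4 had 14 distinct chains. Map4-201, the annotated chain of 19 exons, was assembled in 5 libraries at 9.37% to 26.3%. Map4-206, a short chain of 4 exons, made up 25.4% to 29.0% in WT replicate 2 and Gde2KO replicates 1 and 3. These shares count only transcripts with several exons. WT replicates 1 and 3 and Gde2KO replicate 2 held single-exon transcripts within the stretch that its last exon covered in Gde2KO replicate 3. Their deposited FPKM was 60.35 to 124.4, so a missing chain does not show that Map4-206 was absent there. Of its other 2 tested coding exons, the one of 222 bases was at 41.5%, 47.9% and 39.4% in WT and 42.1%, 43.6% and 29.2% in Gde2KO. The one of 114 bases was at 27.2%, 17.1% and 39.4% in WT and 13.2%, 43.6% and 27.4% in Gde2KO. Both had groups that overlapped (limma adjusted p = 0.906 and 0.999).

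The MAP1 genes each make a precursor that is cut into a heavy and a light chain. MAP1A is abundant in mature neurons, and MAP1B is the form that prevails during axon growth. Map1b (chr13:99421446-99516540) was at 257.2, 228.6 and 239.9 scaled FPKM in the WT cords and at 258.7, 211.4 and 200.7 in Gde2KO. The groups overlapped, and the fold was 0.920 (95% interval 0.751 to 1.13, limma adjusted p = 0.882). Map1b-201, a chain of 7 exons, was the only chain in 4 libraries, and WT replicate 2 and Gde2KO replicate 2 held 2 unannotated chains each in its place.

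Map1a (chr2:121289600-121310832) was at 209.5, 242.6 and 239.2 scaled FPKM in the WT cords and at 235.8, 240.6 and 203.7 in Gde2KO. The groups overlapped widely, and the fold was 0.983 (95% interval 0.823 to 1.17, limma adjusted p = 0.969). WT replicate 1, the lowest WT value, had 1474 bases of the last exon assembled against 2677 or 2678 in the others.

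The shares of the assembled Map1a chains did separate the groups. Each library held the same 2 annotated chains. Map1a-201, with 7 exons, had a start at chromosome 2 position 121289105 to 121289584, and Map1a-202, with 6 exons, at position 121295404 to 121295437. In WT the assembled upstream start lay at 121289105, 121289261 and 121289393, and in Gde2KO at 121289546, 121289584 and 121289471, also without overlap. Whether the shares follow the assembled length of the first exon was not tested. The upstream chain made up 20.1%, 23.1% and 28.1% in WT and 36.0%, 35.5% and 32.4% in Gde2KO. Its log2 odds differed by 0.75 ± 0.22 (SE), which did not pass over the 2206 isoforms tested (limma, unadjusted p = 0.0157, adjusted p = 0.871). For the downstream chain, its mirror image, the unadjusted limma p was 0.0644. Of all isoforms 0 passed (0%), 96 (4.35%) had an unadjusted limma p under 0.05 and 218 (9.88%) had groups apart. These 2 were the isoforms with groups apart among the 6 tested in these genes.

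In absolute terms the downstream Map1a chain was at 192.5, 191.5 and 176.6 scaled FPKM in the WT cords and at 154.5, 159.0 and 141.1 in Gde2KO, without overlap. The upstream chain was at 48.4, 57.6 and 68.8 in the WT cords and at 86.9, 87.4 and 67.7 in Gde2KO. Here WT replicate 3 lay above Gde2KO replicate 3, so these groups overlapped.

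**Figure D4:**
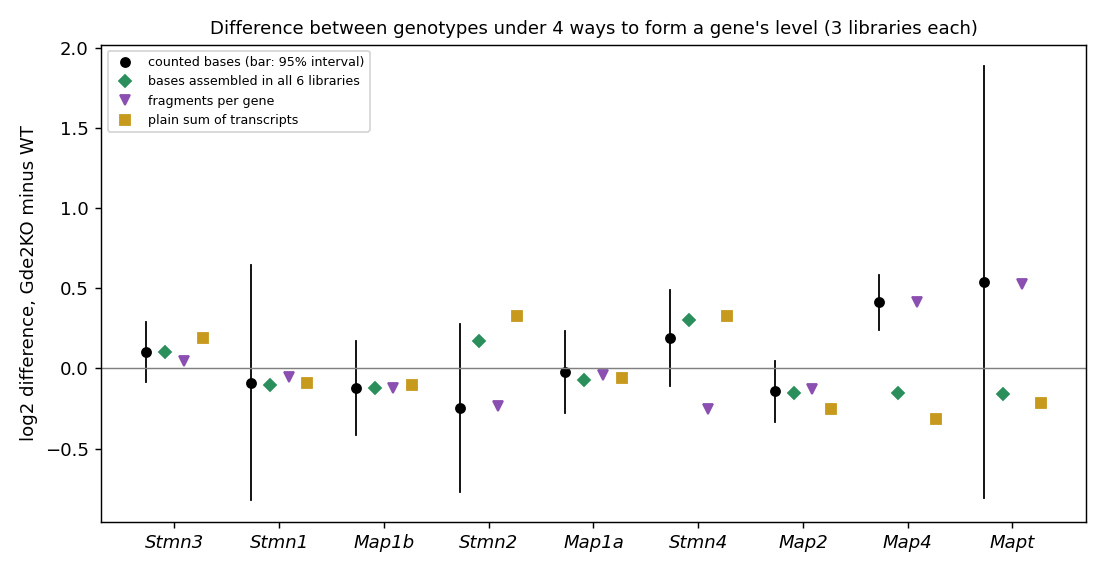
Log2 difference (Gde2KO minus WT, 3 libraries each) of the 9 tested genes under 4 definitions of a gene's level. Bars are 95% limma intervals on the counted bases. Map1a, Map1b, Map2, Stmn1 and Stmn3 keep their sign under all 4, and Map4 is at 0.41 on the counted bases and at -0.16 on the bases assembled in all 6 libraries.

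The stathmins are small phosphoproteins that bind tubulin dimers. Stathmin 1 is cytosolic, and Stmn2 (SCG10), Stmn3 (SCLIP) and Stmn4 (RB3) encode membrane-anchored forms of neurons. Stmn3 (chr2:181306459-181314500) was at 417.9, 390.1 and 397.4 scaled FPKM in the WT cords and at 422.2, 418.9 and 453.9 in Gde2KO. The lowest Gde2KO library lay just above the highest WT library, and the fold was 1.07 (95% interval 0.945 to 1.22, limma adjusted p = 0.882). Stmn3-201, with 5 exons, was the only chain in 5 libraries, and Gde2KO replicate 3 added an unannotated chain of 4 exons at 43.8%.

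Stmn1 (chr4:134468320-134473843) was at 301.5, 317.1 and 208.8 scaled FPKM in the WT cords and at 299.4, 322.8 and 171.8 in Gde2KO. Replicate 3 was the lowest of both groups, and the groups overlapped (fold 0.941, limma adjusted p = 0.958). Without Gde2KO replicate 3 the log2 difference turned from -0.09 to 0.20. In the 2 low libraries the chain Stmn1-201 was assembled with 1548 and 1561 bases, against 964 to 995 in the other 4. As fragments per gene the spread was smaller: 299.4, 315.2 and 299.3 in WT and 297.9, 321.0 and 270.3 in Gde2KO. WT replicate 3 also held Stmn1-203, of 4 exons, at 54.6%.

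Stmn2 (chr3:8509360-8561606) was at 256.2, 229.8 and 254.4 scaled FPKM in the WT cords and at 235.4, 150.1 and 255.1 in Gde2KO. Gde2KO replicate 2 stood alone below the rest, and the fold was 0.844 (95% interval 0.587 to 1.21, limma adjusted p = 0.882). In that library 104 bases of the last exon were assembled, against 1283 to 1345 elsewhere. On the bases assembled in all libraries it was instead the highest, at 372.2 against 229.8 to 256.2. Without it the log2 difference was -0.01, against -0.24 with all libraries.

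Stmn2-201, a chain of 5 exons, was the only chain in 4 libraries. Gde2KO replicates 2 and 3 also held a chain of 6 exons, at 87.8% and 77.8%. Its first exon ended at position 8509204, upstream of the annotated gene start at 8509360. An unannotated gap of 288 bases led to its next exon, which began at 8509493, inside the annotated gene. Gde2KO replicate 1 had no such chain, and the share of Stmn2-201 did not pass (limma adjusted p = 0.871). In human neurons the first intron of STMN2 is known for a cryptic exon that is used when the RNA-binding protein TDP-43 is lost. In these mouse libraries no assembled transcript had an exon within the 32210 bases of intron 1 (chr3:8509631-8541840). Whether the mouse intron holds a counterpart of the human exon was not examined, so its absence gives no reading on TDP-43.

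Stmn4 (chr14:66344296-66361680) was at 142.4, 169.5 and 187.3 scaled FPKM in the WT cords and at 192.6, 197.8 and 176.2 in Gde2KO. The groups overlapped, and the fold was 1.14 (95% interval 0.928 to 1.402, limma adjusted p = 0.882). Its last exon of 606 bases was assembled for 568, 602 and 95 bases in WT and for 19, 19 and 116 in Gde2KO. As fragments per gene the order turned: 222.0, 260.5 and 215.0 in WT and 194.0, 209.4 and 183.0 in Gde2KO, without overlap (limma adjusted p = 0.865).

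RB3 proteins are known to come in forms that differ by an alternative exon, and a coding exon of 81 bases (chr14:66356269-66356349, plus strand) was the alternative exon of Stmn4 used in every library. It is shown in capitals with 15 bases of the neighbouring exons, from the annotated transcript Stmn4-203.
Stmn4 exon of 81 bases: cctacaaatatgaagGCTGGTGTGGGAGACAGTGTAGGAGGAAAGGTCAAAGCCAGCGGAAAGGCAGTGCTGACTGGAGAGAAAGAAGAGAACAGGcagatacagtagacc

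It was included at 27.1%, 31.1% and 24.7% in the WT cords and at 28.4%, 25.4% and 20.7% in Gde2KO. This was the most even of the tested alternative exons across the 6 libraries, and the groups overlapped (limma adjusted p = 0.934). The chain without it, Stmn4-201, made up 72.9%, 68.9% and 61.7% in WT and 71.6%, 74.6% and 79.3% in Gde2KO (limma adjusted p = 0.871). All 14 Stmn4 transcripts had an annotated chain. A second exon, of 53 bases, was at 12.8% and 13.5% in WT replicates 2 and 3 and at 20.7% in Gde2KO replicate 3, and at 0 in the other 3 libraries.

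Doublecortin (Dcx, chrX:143855842-143933311) is a marker of migrating young neurons and was near the floor. It was at 0.570, 0.704 and 0.556 scaled FPKM in the WT cords and at 0.502, 0.575 and 0.602 in Gde2KO. Its mean lay under 1 FPKM, so it was left out of the main test. Fitted without that filter it differed by -0.10 on the log2 scale (limma adjusted p = 0.918). Of its 29 transcripts 20 had a single exon, and no multi-exon chain was common to more than 3 libraries.

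Other genes that act on microtubules were followed as 6 lists of 89 genes, of which 83 were tested: 36 were higher and 47 lower in Gde2KO, 0 passed (limma, smallest adjusted p = 0.882), and the median log2 difference was -0.04. An unadjusted limma p under 0.05 was found for 1 of them, and 9 (10.8%) had groups apart. These shares stand beside 3.91% and 10.9% of all genes. Of all genes tested 49.9% were lower in Gde2KO, and whether the split of any list differs from that was not tested.

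Among the other structural MAPs 8 of 18 were higher and 10 lower. Map1lc3a, a relative of the MAP1 light chain known for its part in autophagy, was at 115.8, 75.0 and 124.1 scaled FPKM in the WT cords and at 59.7, 82.5 and 27.6 in Gde2KO. The groups overlapped through WT replicate 2 and Gde2KO replicate 2. Map6, which encodes a protein that makes microtubules resistant to cold, was at 32.2, 33.0 and 32.8 in the WT cords and at 31.9, 30.1 and 27.9 in Gde2KO. Its relative Map6d1 was at 25.4, 24.6 and 28.7 against 24.5, 23.3 and 20.9, so both had lower values in each Gde2KO library without passing the test.

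Of the 5 collapsin response mediator proteins, which bind tubulin in growing axons, 4 were higher and 1 lower. Dpysl3 was at 23.5 ± 1.98 scaled FPKM in WT and 25.4 ± 0.423 in Gde2KO (mean ± SD, n = 3). Dpysl2 was at 28.1 ± 1.08 and 29.6 ± 1.93, and Crmp1 at 17.0 ± 0.476 and 16.6 ± 0.176. All 3 differed by less than 10% between genotypes.

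Of 18 proteins that bind the ends of microtubules 6 were higher and 12 lower. Kif2a, a depolymerising kinesin, was at 10.1 ± 0.437 scaled FPKM in WT and 11.03 ± 0.715 in Gde2KO (mean ± SD, n = 3). Camsap3, which binds minus ends, was at 7.57 ± 0.290 and 6.67 ± 1.005. Slain1, which acts at plus ends, was at 48.2 ± 6.93 and 40.9 ± 6.94. In all 3 genes the groups overlapped.

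The severing enzymes cut microtubules along their length, and 5 of 8 could be tested: 3 were higher and 2 lower. Spast, which encodes spastin, was at 7.14, 7.60 and 3.56 scaled FPKM in the WT cords and at 8.35, 7.64 and 8.28 in Gde2KO. WT replicate 3 alone lay far below the others. Fignl2 was at 1.26 ± 0.0974 in WT and 0.973 ± 0.108 in Gde2KO, and Katnal1 at 17.9 ± 0.870 and 16.3 ± 1.30 (mean ± SD, n = 3).

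Among the tubulin modifying enzymes and gamma-tubulin complex subunits 9 of 17 were higher and 8 lower. Tubgcp2, a subunit of the complex that nucleates microtubules, was the gene with an unadjusted limma p under 0.05 (limma adjusted p = 0.882). It was at 9.997, 10.1 and 9.71 scaled FPKM in the WT cords and at 8.70, 9.08 and 8.03 in Gde2KO. Its partner Tubgcp3 was at 7.09 ± 0.424 and 6.62 ± 0.253, and Ttll5, a glutamylase, at 16.6 ± 0.156 and 14.9 ± 2.04 (mean ± SD, n = 3).

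Of 20 kinases and phosphatase subunits that act on tau or stathmins 6 were higher and 14 lower. The groups were apart for 0 of them, against 10.9% of all genes. The tau tubulin kinase Ttbk1 was at 12.4 ± 0.416 scaled FPKM in WT and 11.5 ± 0.641 in Gde2KO (mean ± SD, n = 3). Its relative Ttbk2 was at 21.6, 19.3 and 20.2 in the WT cords and at 7.60, 19.1 and 20.9 in Gde2KO, with replicate 1 of Gde2KO alone low. Mark3, a kinase that releases MAPs from microtubules, was at 15.8 ± 2.39 and 17.6 ± 1.87.

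In bulk tissue fewer cells of a type and less RNA per cell cannot be told apart. Of 7 neuronal marker genes 0 passed, and their summed level was 2908 to 3177 scaled FPKM in WT and 3018 to 3217 in Gde2KO. The 6 motor neuron markers summed to 160.9 to 193.7 and 193.5 to 217.2, with 5 higher, 1 lower and 0 passed. The 6 immature neuron markers summed to 18.4 to 19.2 and 18.0 to 19.8, with Igfbpl1 and Nhlh1 listed at 0 throughout. Most of that sum was Elavl2, at 14.2 to 16.3 by library, and only Elavl2 and Sox4 reached the test. The 7 markers of mature oligodendrocytes, which also make tau and MAP4, summed to 6345 to 9197 and 7372 to 9434. The 6 markers of sensory ganglia summed to at most 0.506 and the 4 of skeletal muscle to at most 0.854 in any library. The part of these cell types in the values above was not tested.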

How the data were processed

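The deposited files are 1 Cufflinks assembly for each of the 6 libraries, with a FPKM and confidence bounds per transcript that the authors made. Per the submitters' processing notes, TopHat2 2.1.1, Cufflinks 2.2.1, Cuffdiff 2.2.1, FastQC and the build mm10 were used. The files give no counts, so absolute depth is unknown. The ratio of deposited coverage to FPKM put relative depth between 0.909 and 1.14, and each library held 31899 to 33791 transcripts. The labels give all libraries the same flow cell name and no batch.

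Transcripts of at least 200 exonic bases were laid over GENCODE vM21. A gene's level was the FPKM summed at each base and averaged over exonic bases unshared with other genes and assembled in at least 3 libraries. Genes with 200 such bases and a mean FPKM of 1 were tested after median-of-ratios scaling, with limma 3.58.1 on log2(FPKM + 0.1), with trend and robust moderation. Tests were two-sided, p-values were adjusted by Benjamini-Hochberg, and 0.05 was the threshold. Fold changes are on that scale. Isoforms were matched by intron chain and tested only where assembled in all 6 libraries, and exons where they had a value in all 6. Isoform shares and exon inclusion were tested as log2 odds with an offset of 1 percent, for mean values of 10 to 90% and genes of at least 5 FPKM. Strand comes from the assembly, so reads of overlapping antisense genes may not be told apart. Sequences were read from the GENCODE transcripts. Scripts were tested on simulated data. All members were named, and up to 3 genes of smallest p in each list. The members and lists were chosen with earlier results of these data known. Alternatives changed 1 choice at a time, except that trend and robust moderation were dropped together.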

Additional observations from a re-analysis of the deposited data

How the results depend on the processing

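None of the 9 tested genes passed under any of the 20 alternatives run (smallest limma adjusted p 0.197, for Map4 without Gde2KO replicate 3). The count of genes called among all genes was 15. It was 4 with a pseudocount of 0.01, 1 with a mean FPKM of at least 5, 4 with values of 0 as missing, and 4 on bases assembled in all 6 libraries, a definition chosen after seeing the data. Leaving out 1 library gave 10 (without WT replicate 1) to 26 (without WT replicate 2) genes, 0 to 3 isoforms and 0 to 5 exons, with no isoform or exon of the 10 genes among them. The genes split into 3 higher and 18 lower without Gde2KO replicate 1, 5 and 20 without replicate 2 and 4 and 21 without replicate 3, against 5 and 10 with all libraries, and the split turned without any 1 WT library.

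The plain sum of transcripts reversed the log2 difference of Mapt (-0.213), Map4 (-0.316) and Stmn2 (0.327). Bases common to all libraries reversed Mapt (-0.160), Map4 (-0.156) and Stmn2 (0.171), and fragments per gene reversed Stmn4 (-0.256). Leaving out 1 library gave log2 differences of -0.088 (without WT replicate 1) to 0.852 for Mapt, -0.093 to 0.051 for Map1a, with the highest without Gde2KO replicate 3, and -0.277 to 0.197 for Stmn1, likewise. In log2 odds it gave -0.78 to 0.066 for Mapt-204, -0.096 to 0.10 for the 8-exon Mapt chain, and -0.151 to 2.81 for Mapt exons 2 and 3. All 3 turned without WT replicate 2, and the 8-exon chain also without Gde2KO replicate 3 (0.082). It gave -0.137 (without WT replicate 3) to 2.77 for the Map2 exon of 246 bases, -0.597 to 0.535 for the Map4 exon of 114 bases and -0.960 to 0.064 for that of 93 bases, both turning without Gde2KO replicate 1 and the first also without WT replicate 3 (0.346). Beyond the fewer samples or bases, the cause was not tested.

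With the replicate block 2 genes were called among all genes, 0 isoforms and 0 exons, and no call of the 10 genes changed. Deviations of same-numbered libraries correlated at 0.011, 0.036 and -0.067, and those of differently numbered ones at -0.063 to 0.051. These values cannot settle whether same-numbered libraries share more than a number.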
